A study of Ovis aries with 6 samples.

Results

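Among 34119 loci in the deposited table of sheep granulosa cell RNA, 3288 were named loci without an annotated transcript that lay antisense to a protein-coding gene of the same name. They were chosen by rule: a filled gene name, no transcript type, a plus or minus strand, an overlap with a protein-coding locus that shares a name on the opposite strand, and a mean count of at least 10 over the 6 libraries. Of 8685 named loci without an annotated transcript, 5927 had a strand and 3810 met the antisense condition at any count. The protein-coding partner is called the host here, and there were 1786 hosts. The loci just inside the count minimum, over ENSOARG00020001199, ACTR2 and EMCN, had a mean count of 10.167, and those just outside it, over PTPRG, FAM13C and CDC14A, had 9.833.

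RNA came from granulosa cells, the somatic cells that line the follicle and nurse the oocyte. It was sequenced from 3 libraries of atretic follicles, which are degenerating, and 3 of healthy follicles, after TRIzol extraction and removal of ribosomal RNA. The labels describe independent biological replicates within each group and name no animals, breed or follicle size, so p-values measure the spread between these samples.

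Antisense transcription from the strand opposite a coding gene is widespread in mammals. Such RNAs are often unspliced, retained in the nucleus and low in abundance, and some are known to act on the promoter, splicing or stability of the host's own RNA. Libraries made after removal of ribosomal RNA hold unspliced nuclear RNA, including introns, beside mature messenger RNA. Whether counting used strand is not stated in the sources used here, so reads of an antisense locus and of unspliced RNA of its host cannot be told apart. In these bulk samples, fewer cells of a type and less RNA per cell cannot be told apart either.

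Total counts ran from 87455037 to 91597388 per library. The antisense loci held 11.94 to 13.08% of all counts in the atretic libraries, against 10.66 to 14.32% in the healthy ones. Healthy replicate 3 stood apart from its group. The coefficient of variation between healthy replicates 1 and 3 over the antisense loci was 0.64, whereas healthy replicates 1 and 2 gave 0.365 and pairs of atretic libraries 0.361 to 0.389. Granulosa markers, of which 10 of 11 were found, had the highest sums of the cell types looked at. They summed to 9260 to 9570 CPM per atretic library, against 9320, 9240 and 34600 CPM for healthy replicates 1, 2 and 3. Of the other cell types, 7 of 8 macrophage markers summed to 314 to 360 CPM in atretic and 386 to 521 CPM in healthy libraries. All 5 endothelial markers summed to 17.4 to 18.8 and 22.7 to 45.1 CPM, with CDH5 under 0.1 FPKM, and all 4 theca markers to 312 to 361 and 324 to 877 CPM, with CYP17A1 under 0.1 FPKM. The 3 T cell markers summed to 1.54 to 2.48 and 1.74 to 5.8 CPM, 3 of 4 oocyte markers to 2.09 to 2.29 and 0.677 to 5.16 CPM, and none of 3 red cell markers was found. Their part in the results was not tested. CPM, the library-scaled count, was computed over named loci after TMM normalisation, and FPKM is the deposited per-length value.

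The antisense loci were mostly long stretches inside large genes, counted over nearly their whole span. Of the 3288, 3086 lay wholly within the host (93.9%), 103 held the host's start, 78 held its end and 21 covered it. Their median span was 9600 bp, against 151760 bp for the hosts, and a locus covered a median of 6.39% of its host. The length by which the authors scaled a locus can be read from its count and FPKM. It was a median of 86.6% of the span for the antisense loci and of 18.9% for the hosts. At least 50% of the span was counted in 2519 antisense loci (76.6%) and in 272 hosts (15.2%). Named loci without an annotated transcript on the same strand as their host, 869 with a mean count of at least 10, were built alike, with a median of 82.2% of the span counted. Plus-strand loci numbered 1704 and minus-strand loci 1584.

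Hosts carried unequal numbers of these loci. A single antisense locus lay on 1131 hosts, 2 to 4 on 543, 5 to 9 on 100 and at least 10 on 12, so that 2157 of the 3288 shared their host with another. Neighbouring loci on 1 host are not independent of each other. The most, 24, lay along GPC6, which encodes a glypican, a heparan sulphate proteoglycan anchored at the cell surface. LTBP1, whose protein holds latent TGF-beta in the matrix, and TRHDE, a peptidase gene, carried 15 each.

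Per length, the antisense loci were lower than their hosts in most cases. The median ratio of antisense to host FPKM was 0.384, the lower quartile 0.194 and the upper quartile 0.656. All 6 libraries put the antisense locus below its host for 2663 loci (81.0%) and above it for 228 (6.93%). Atretic replicates 1, 2 and 3 had median log2 ratios of -1.27, -1.43 and -1.33. Those of healthy replicates 1, 2 and 3 were -1.61, -1.58 and -1.27. Healthy replicate 3 matched atretic replicate 1 and lay above atretic replicates 2 and 3, so the groups overlapped. Healthy replicates 1 and 2 lay below every atretic library.

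**Figure D1:**
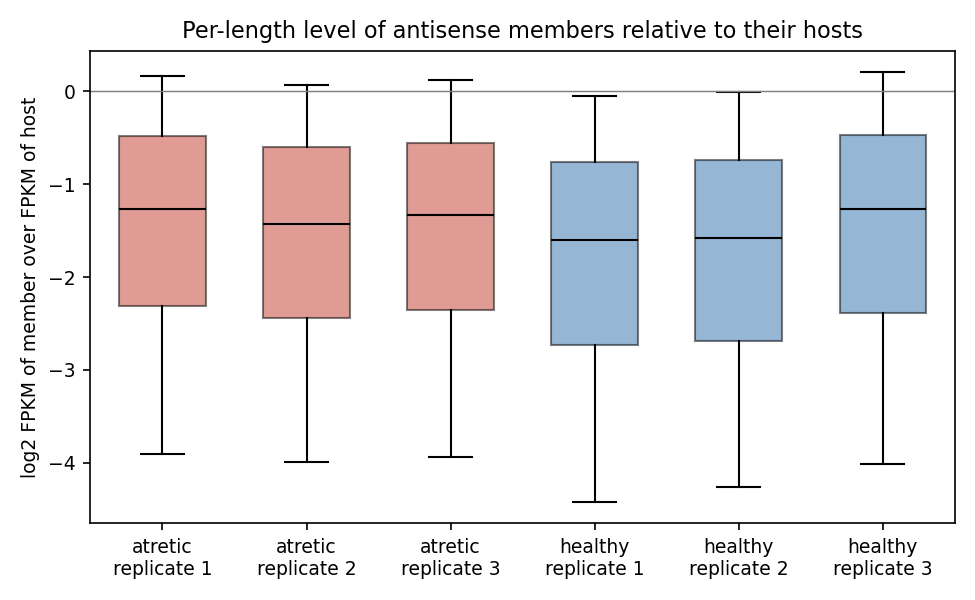
Per-length level of the antisense loci relative to their hosts, as log2 of the FPKM ratio (y axis), for the 3 atretic and 3 healthy libraries (x axis). Boxes span the quartiles with the median as a line and whiskers run from the 10th to the 90th percentile of loci; the medians of healthy replicates 1 and 2 (-1.61 and -1.58) are the lowest.

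A few antisense loci were far above their host. On FAT3, a protocadherin gene, a locus on chromosome 21 (3020806 to 3035786, plus strand, in the table's coordinates) had a mean FPKM 123 times that of the host and counts of 6331, 5044 and 5787 in the atretic libraries, against 5626, 5489 and 7211 in the healthy ones. A further FAT3 locus stood at 85.2 times the host. KCTD8, an auxiliary subunit of the GABA-B receptor, had an antisense locus over its start at 113 times the host's FPKM, with 289, 252 and 295 CPM in atretic and 198, 209 and 134 CPM in healthy libraries. Every atretic library of the KCTD8 locus lay above every healthy one, while the FAT3 loci overlapped between the groups. Next came loci on ZCCHC7 (35.7 times), which takes part in nuclear RNA decay, on the nuclear receptor gene RORA (15.0 times) and on ENSOARG00020009349 (10.8 times). The ENSOARG00020009349 locus was near its host's level in healthy replicates 1 and 2. It had 0.411 and 0.234 FPKM there, against 0.271 and 0.237 for the host, and 5.2 against 0.155 in healthy replicate 3. In these 6 cases the host itself was often scarce, as with 59.8 counts on average for FAT3.

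The 8 loci with most reads lay on GPC5, with 3 of them, HS6ST2, ROBO1, FNDC3B, EXT1 and AUTS2. The highest, antisense to GPC5, another glypican, ran past the host's end on chromosome 10 (74481630 to 74911070, minus strand). It had 10300, 8680 and 10300 CPM in the atretic libraries, against 6790, 7440 and 3860 CPM in the healthy ones. All atretic values were above all healthy ones, with a log2 fold change of 0.70 (SE 0.28; adjusted p = 0.449 by edgeR's quasi-likelihood test) and 0.46 without healthy replicate 3, while the GPC5 host overlapped between the groups. The locus over the start of HS6ST2, a heparan sulphate sulphotransferase, had 6450, 5570 and 6870 CPM in atretic and 4670, 4300 and 11500 CPM in healthy libraries. The ROBO1 locus, within the gene of a Slit receptor, had 2360, 1970 and 2320 CPM in atretic and 1100, 1170 and 11000 CPM in healthy libraries. In both, atretic libraries lay above healthy replicates 1 and 2 and below healthy replicate 3. The EXT1 locus, within the gene of a heparan sulphate polymerase, had 1990, 1770 and 1880 CPM in atretic and 1260, 1250 and 1220 CPM in healthy libraries, with no overlap and a log2 fold change of 0.59 (SE 0.13; adjusted p = 0.244 by edgeR). Its host was also higher in every atretic library (0.41, SE 0.14; adjusted p = 0.379 by edgeR).

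Against this background the atretic libraries were set against the healthy ones. Antisense loci were more often higher than lower in atretic granulosa cells, but edgeR called no single antisense locus over all 6 libraries. With p-values of edgeR's quasi-likelihood test adjusted over 21372 named loci (Benjamini-Hochberg, 0.05), 0 antisense loci were called higher in atretic (0.00936% of all tested loci were) and 0 lower (0.0% of all). At an unadjusted p under 0.05, 374 were higher (11.4%; 5.32% of all tested loci) and 40 lower (1.22%; 5.47% of all). DESeq2 called 123 higher (3.74%; 1.83% of all) and 13 lower (0.395%; 1.31% of all). The 3 atretic libraries lay above all 3 healthy ones in 532 antisense loci (16.2%; 10.1% of all) and below them in 88 (2.68%; 9.21% of all). Of 1775 tested hosts, 170 lay above in this way and 236 below.

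Healthy replicate 3 moved these counts. Without it, edgeR called 562 antisense loci higher in atretic (17.1%; 6.5% of all tested loci) and 28 lower (0.852%; 5.35% of all), and the 562 lay on 407 hosts. The median log2 fold change of the antisense loci was 0.08 with all 6 libraries and 0.31 without healthy replicate 3. The median over all tested loci was -0.03 with all 6, and over the hosts -0.05, or -0.01 without healthy replicate 3. The share of antisense loci with a positive log2 fold change was 57.6% with all 6 and 79.5% without healthy replicate 3. Over all tested loci it was 46.4% and 49.9%, and over same-strand loci 60.0% and 79.4%.

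Library by library, the median antisense locus stood 0.13, -0.02 and 0.07 log2 units from its mean over the 6 libraries in the atretic group (replicates 1, 2 and 3). In the healthy group it stood at -0.23, -0.20 and 0.22. Healthy replicate 3 was the highest of all and healthy replicates 1 and 2 the lowest, so the groups overlapped. The hosts moved little, with medians from -0.04 to 0.00 in the atretic and 0.00 to 0.05 in the healthy libraries. Same-strand loci followed the antisense ones, with medians of 0.15, -0.04 and 0.10 in atretic and -0.22, -0.18 and 0.18 in healthy libraries.

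**Figure D2:**
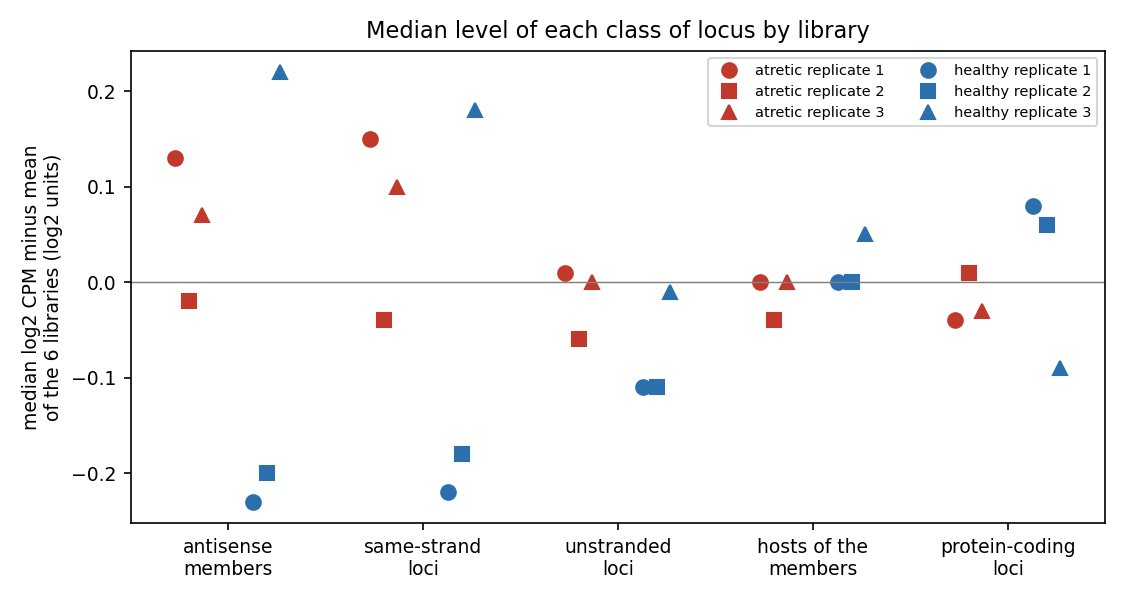
Median log2 CPM of each class of locus minus the locus's mean over the 6 libraries (y axis, log2 units), for antisense loci, same-strand and unstranded named loci without annotated transcript, hosts and all protein-coding loci (x axis). Each point is a library, atretic in red and healthy in blue; for the antisense loci healthy replicates 1 and 2 lie at -0.23 and -0.20 and healthy replicate 3 at 0.22.

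Loci on the host's own strand gave similar values, and the difference between the strands was not tested. Of 869 same-strand loci, 133 had every atretic library above every healthy one (15.3%) and 19 the reverse (2.19%), with a median log2 fold change of 0.12, or 0.33 without healthy replicate 3. On 365 hosts with both kinds, the median was 0.06 for 1139 antisense loci and 0.14 for 634 same-strand loci, and without healthy replicate 3 it was 0.34 and 0.35. The hosts themselves had medians of -0.04 and 0.06 in those fits.

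The ratio of each antisense locus to its host was then tested within libraries, which needs no library size. In limma on log2((locus count + 0.5)/(host count + 0.5)) over 5548 pairs, 1 of 3275 antisense pairs was called with a higher ratio in atretic (0.036% of all pairs) and 0 with a lower (0.0% of all). At an unadjusted p under 0.05 the ratio was higher in 330 (10.1%; 8.89% of all pairs) and lower in 38 (1.16%; 1.51% of all). Antisense pairs made up 3275 of the 5548, so their shares were bound to lie near those of all pairs. At the same unadjusted p, the ratio was higher in 11.7% of 855 same-strand pairs and lower in 1.52%. It was higher in 4.44% of 1418 unstranded pairs and lower in 2.33%. The difference between these classes was not tested. Over the antisense pairs, the median difference of the log2 ratio was 0.14. Without healthy replicate 3, 61 antisense pairs were called higher (1.86%; 1.5% of all pairs) and 2 lower (0.0611%; 0.108% of all), with a median of 0.25.

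The single called pair lay at ELOVL6, which encodes an enzyme that elongates saturated and monounsaturated fatty acids. The antisense locus (MSTRG.25037, chromosome 6, 18331479 to 18346830, minus strand) lay within the host, with its nearer edge, which is its own end, 2333 bp inside the host's start. It had 105, 103 and 102 CPM in the atretic libraries, against 53.9, 56.6 and 45.8 CPM in the healthy ones. The ELOVL6 host had 75, 72.3 and 73.9 CPM in atretic and 89.2, 86.7 and 73.5 CPM in healthy libraries. The antisense groups were far apart, while the host groups overlapped at healthy replicate 3. The log2 ratio rose by 1.16 in atretic (SE 0.11; adjusted p = 0.0407 by limma), and the locus alone had a log2 fold change of 0.99 (SE 0.12; adjusted p = 0.0965 by edgeR). No antisense pair was called with a replicate block, or without atretic replicate 1, atretic replicate 2 or healthy replicate 1.

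P3H2 and ETNK1 were named after their values were seen, because other filters called an antisense locus there. On P3H2, a collagen prolyl hydroxylase gene, the locus had 40.4, 30.0 and 34.7 CPM in atretic and 11.4, 12.8 and 11.8 CPM in healthy libraries, with a log2 fold change of 1.54 (SE 0.15; adjusted p = 0.0946 by edgeR). The P3H2 host, at 12.4, 12.9 and 12.4 CPM in atretic and 15.1, 15.2 and 11.6 CPM in healthy libraries, overlapped between the groups. The ETNK1 locus, whose nearer edge lay 421 bp inside the start of the ethanolamine kinase gene, had 57.8, 53.0 and 60.5 CPM in atretic and 29.2, 28.2 and 26.7 CPM in healthy libraries (1.03, SE 0.11; adjusted p = 0.0965 by edgeR). Both loci were higher in every atretic library.

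Of antisense loci higher without overlap, 31 had a host lower without overlap, 158 a higher host and 341 an overlapping host. Of those lower without overlap, 2 had a higher host, 30 a lower host and 55 an overlapping host. Opposite pairs were thus the fewest in either direction. Among tested hosts, 9.58% were higher and 13.3% lower without overlap. ADD3, which encodes an adducin of the membrane skeleton, had the smallest p of the opposite pairs. Its antisense locus (chromosome 22, 33739342 to 33759188, minus strand) had 61.2, 50.7 and 58.1 CPM in atretic and 28.3, 29.9 and 30.0 CPM in healthy libraries. The ADD3 host had 39.1, 38.9 and 42.2 CPM in atretic and 43.4, 49.9 and 44.9 CPM in healthy libraries. The difference of the log2 ratio was 1.14 (SE 0.14; adjusted p = 0.0503 by limma), just above the threshold of 0.05.

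SEPTIN11, a cytoskeletal septin gene, had an antisense locus whose nearer edge lay 1953 bp inside its start, with 52.0, 49.7 and 48.1 CPM in atretic and 32.9, 32.3 and 32.9 CPM in healthy libraries. Its host had 167, 165 and 179 CPM in atretic and 203, 202 and 221 CPM in healthy libraries. The groups stood clear of each other in opposite directions, and the log2 ratio differed by 0.90 (SE 0.13; adjusted p = 0.0719 by limma). B4GALT5, a galactosyltransferase of lactosylceramide synthesis, NIBAN1, a stress-induced protein, and BMP2K, a kinase of clathrin-coated vesicles, were named by the same rule. Their log2 ratios differed by 1.05, 0.69 and 0.97 in that order, with adjusted p of 0.144, 0.144 and 0.0895 by limma. The host groups of B4GALT5 and NIBAN1 were barely apart. Their highest atretic values were 42.3 and 847 CPM, and their lowest healthy values 42.5 and 852 CPM.

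**Figure D3:**
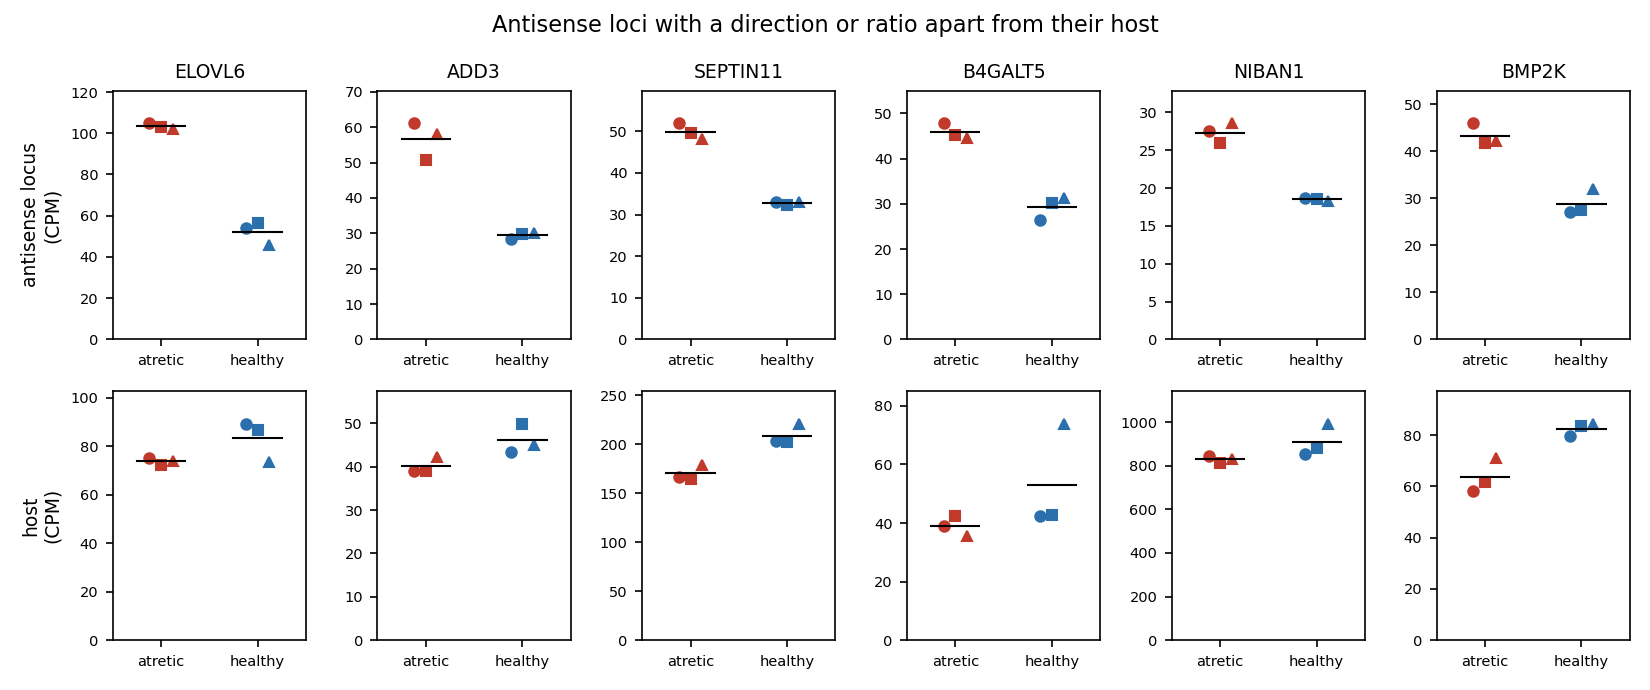
CPM of the antisense locus (upper row) and of its host (lower row) for ELOVL6, ADD3, SEPTIN11, B4GALT5, NIBAN1 and BMP2K; each point is a library, atretic left and healthy right, and the line is the group mean. All 6 antisense loci are higher in every atretic library. The hosts other than ELOVL6 are lower in every atretic library, though barely so for B4GALT5 and NIBAN1.

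Across 3275 antisense loci with a tested host, the log2 fold changes of locus and host had Pearson's r of 0.318 and Spearman's rank coefficient of 0.489. These are descriptions across loci that share libraries, scaling and, possibly, reads. Both were positive in 1094 pairs (33.4%) and both negative in 1082 (33.0%). The locus was positive and the host negative in 792 (24.2%), and the reverse held in 307 (9.37%). Where antisense groups did not overlap, 158 higher loci had a higher host and 341 an overlapping host, while 30 lower loci had a lower host and 55 an overlapping host. Without healthy replicate 3, Pearson's r was 0.192 and Spearman's coefficient 0.274, and of 562 loci called higher the host was called higher in 138, lower in 5 and not called in 419.

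**Figure D4:**
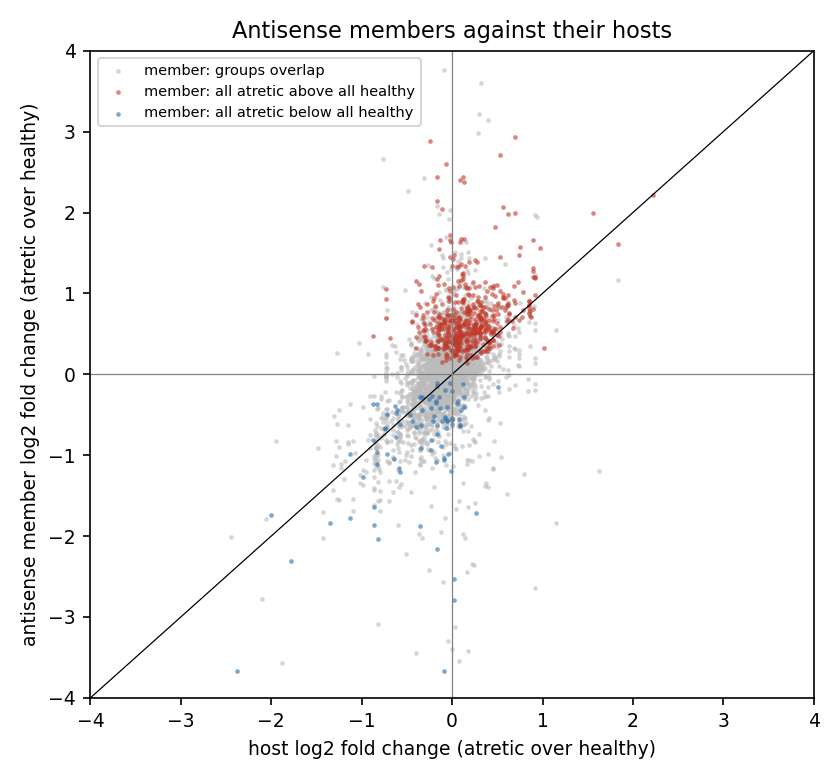
Log2 fold change (atretic over healthy) of each antisense locus (y axis) against that of its host (x axis), in edgeR over 6 libraries, with equality as a diagonal line. Points are loci with a tested host, red where every atretic library lies above every healthy one and blue for the reverse. Over all 3288 antisense loci, drawn or not, these number 532 and 88. The 26 points beyond 4 log2 units are not drawn.

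Where the locus lay along the host went with how often it was higher in atretic. Among loci within the host, all atretic libraries were above all healthy ones in 21.8% of 1175 with a midpoint in the first of 3 equal parts of the gene, in 15.2% of 1148 in the middle part and in 8.78% of 763 in the last part. The median log2 fold changes were 0.17, 0.06 and -0.06 in the same order. Loci holding the host's start resembled the first part, at 22.3% of 103, and those holding its end the last, at 8.97% of 78. Same-strand loci were ordered alike, at 21.6, 11.7 and 7.41%. Loci in the first part also had more reads, with a median mean count of 1062, against 702 in the middle and 446 in the last part. Among loci with a mean count of at least 1000, a split chosen after values were seen, the shares were 24.5, 17.5 and 11.5%. Without healthy replicate 3, edgeR called 21.0, 17.2 and 11.3% of all loci in these parts higher, and 31.6, 31.0 and 25.9% of those with at least 1000 counts.

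**Figure D5:**
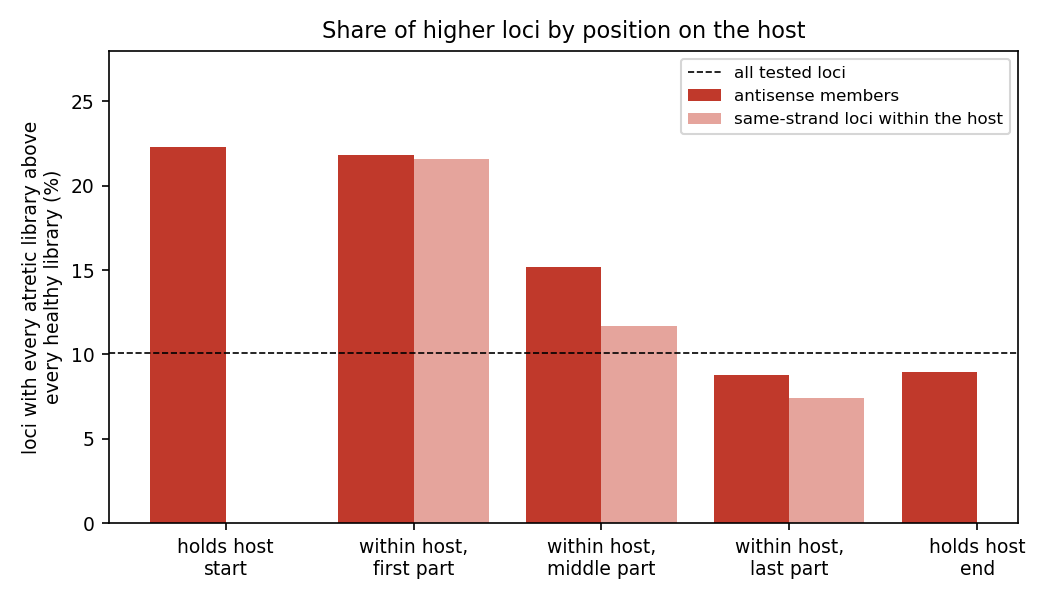
Share of loci with every atretic library above every healthy library (y axis, percent) by position on the host, from its start to its end (x axis), for antisense loci (dark bars) and same-strand loci within the host (light bars). The dashed line is the share among all tested loci, 10.1%; antisense loci are at 21.8% in the first part, 15.2% in the middle and 8.78% in the last.

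Hosts with several loci were described by the signs of those loci, which share libraries and neighbour each other. Of 653 hosts with at least 2 antisense loci, all loci had a positive log2 fold change on 243 and a negative one on 138, and the signs were mixed on 272. On GPC6, 23 of 24 were positive, with a summed level of 1460, 1210 and 1430 CPM in atretic and 1060, 1070 and 1250 CPM in healthy libraries. The GPC6 groups overlapped, since healthy replicate 3 exceeded atretic replicate 2. ARHGAP10, which encodes a GTPase activating protein, had 9 of 10 positive. Of the 10, 8 were higher in atretic without overlap (10.1% of all tested loci were, and 16.2% of all antisense loci). Without healthy replicate 3, edgeR called 2 of the 10 higher (6.5% of all tested loci, and 17.1% of all antisense loci). Summed levels on ARHGAP10 were 448, 414 and 418 CPM in atretic and 299, 309 and 303 CPM in healthy libraries. All 9 loci on ELMO1, an engulfment and migration gene, were positive at 166, 141 and 150 CPM in atretic and 115, 120 and 23.8 CPM in healthy libraries, and the ELMO1 host was also lowest in healthy replicate 3.

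Other long hosts carried loci that were high in healthy replicate 3 alone. LTBP1 had 1 of 15 positive, at 666, 590 and 634 CPM in atretic and 404, 408 and 1590 CPM in healthy libraries, and 12 of the 15 were called higher in atretic by edgeR without healthy replicate 3. The LTBP1 host had 484, 537 and 481 CPM in atretic and 472, 435 and 1100 CPM in healthy libraries. Among 49 hosts with at least 7 loci, 12 had none positive, and 31 of the 96 loci on those 12 were called higher without that library (6.5% of all tested loci were, and 17.1% of all antisense loci). For those 31 the negative direction rested on healthy replicate 3.

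The largest differences without overlap, taken among loci with a mean count of at least 50 and the same direction whichever library was left out, are given as description because they were picked for size. PICALM, a clathrin assembly gene, had an antisense locus (chromosome 21, 10500482 to 10517875, minus strand) with 425, 309 and 490 counts in atretic and 16, 8 and 0 counts in healthy libraries. It was nearly absent from the healthy libraries. Over all 6 it was not called by edgeR (adjusted p = 0.15) but was called by DESeq2 (adjusted p = 4.98e-13). The PICALM host had 449, 424 and 529 CPM in atretic and 653, 710 and 440 CPM in healthy libraries. PLAT, tissue plasminogen activator, had an antisense locus reaching to 23 bp from its start, with 281, 294 and 239 counts in atretic and 36, 86 and 41 counts in healthy libraries, over a host with overlapping groups. The locus on SCARB1, the receptor that takes up cholesteryl esters from high density lipoprotein, had 96, 155 and 149 counts in atretic and 24, 27 and 40 counts in healthy libraries. These 3 were low loci whose groups were well apart and whose host groups overlapped. AKAP12, a scaffold of protein kinase A, differed in having locus and host alike: the locus had 70.4, 71.6 and 55.8 CPM in atretic and 20.5, 18.4 and 3.74 CPM in healthy libraries, and the host 182, 148 and 186 against 51.7, 49.5 and 9.26 CPM. The log2 fold change was 2.21 for the locus (SE 0.58) and 2.22 for the host (SE 0.60). FGF12, ZC2HC1A, SELENOI and ENSOARG00020025307 completed the 8, with log2 fold changes of 2.72, 2.44, 2.07 and 1.99. The SELENOI locus was at 0 counts in healthy replicate 3.

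Fewer loci were lower in atretic, and most of the largest rested on low counts. The locus on ROR2, a receptor of WNT5A, had 149, 172 and 114 counts in atretic and 447, 437 and 632 counts in healthy libraries (-1.78, SE 0.33; adjusted p = 0.197 by edgeR), and its host was also lower in every atretic library. ST8SIA4, a polysialyltransferase gene, had 19, 20 and 20 counts in atretic and 138, 149 and 37 counts in healthy libraries, over a host with 1.89, 1.51 and 1.41 CPM in atretic and 6.31, 5.57 and 4.59 CPM in healthy libraries. Without healthy replicate 3 both antisense loci were called lower by edgeR, with adjusted p of 0.009 and 0.0049. On CADPS2, a vesicle priming gene, the counts were 5, 0 and 6 in atretic and 337, 16 and 22 in healthy libraries, and the log2 fold change was -4.87, or -2.35 without healthy replicate 1. The NEDD4L locus had 224, 323 and 308 counts in atretic and 429, 421 and 2412 counts in healthy libraries, with a log2 fold change of -2.03, or -0.40 without healthy replicate 3. USP31, ENSOARG00020009902, RGS6 and ENSOARG00020016834 had log2 fold changes of -3.67, -2.79, -1.88 and -1.84. When 1 library was left out, USP31 ran from -5.43 to -3.09, and RGS6 was at -0.97 without healthy replicate 3.

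Hosts known from ferroptosis, the iron-dependent death by lipid peroxidation that the series' title names, carried 11 antisense loci on 9 genes. All 3 atretic libraries were above all 3 healthy ones in 7 of the 11 and below them in 0, where the shares were 10.1% and 9.21% over all tested loci and 16.2% and 2.68% over all antisense loci. Of the 11, 10 had a positive log2 fold change. The median was 0.71, against -0.03 over all tested loci and 0.09 for the 9 hosts. EdgeR called none of the 11 over all 6 libraries. Of those named here, DESeq2 over all 6 called the loci on SLC40A1 and POR higher (adjusted p = 4.42e-11 and 0.000916). Without healthy replicate 3, edgeR called 5 of the 11 higher and 0 lower. That fit called 6.5% of all tested loci and 17.1% of all antisense loci higher. SLC40A1, ferroportin, which exports iron, had an antisense locus (chromosome 2, 129638436 to 129646021, minus strand) with 23.7, 18.5 and 22.2 CPM in atretic and 8.46, 8.27 and 6.87 CPM in healthy libraries. Its log2 fold change was 1.45 (SE 0.17; adjusted p = 0.0965 by edgeR), and its host had 154, 161 and 161 CPM in atretic and 125, 126 and 77.1 CPM in healthy libraries. Locus and host were both higher in every atretic library.

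POR, cytochrome P450 reductase, had an antisense locus whose nearer edge lay 433 bp inside its start, with 69.5, 56.9 and 71.0 CPM in atretic and 42.0, 35.0 and 30.8 CPM in healthy libraries (0.87, SE 0.16; adjusted p = 0.192 by edgeR), while its host groups overlapped. The larger of 2 loci on ELOVL5, the elongase of polyunsaturated fatty acids, had 391, 378 and 376 CPM in atretic and 276, 260 and 119 CPM in healthy libraries, and the ELOVL5 host had 682, 634 and 648 CPM in atretic and 368, 372 and 312 CPM in healthy libraries. Both were higher in every atretic library, and the locus had a log2 fold change of 0.80, or 0.51 without healthy replicate 3. SLC39A14, a zinc and iron importer, had 173, 178 and 172 CPM in atretic and 136, 135 and 97.4 CPM in healthy libraries, over a host whose groups overlapped and whose locus also holds PIWIL2. The locus on GCH1, the first enzyme of tetrahydrobiopterin synthesis, was also higher in every atretic library (0.54, SE 0.26; 0.30 without healthy replicate 3). The groups overlapped for the loci on NFE2L2, the NRF2 transcription factor (0.20, SE 0.14), and on IREB2, an iron regulatory protein (-0.09, SE 0.13).

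Hosts of cholesterol synthesis and its control, CYP51A1, DHCR7, FDFT1, SCAP and SREBF2, carried 9 loci, of which 8 were positive and 3 without overlap higher in atretic (10.1% of all tested loci were, and 16.2% of all antisense loci), with a median of 0.56. With healthy replicate 3 left out, edgeR called 3 of the 9 higher (6.5% of all tested loci were, and 17.1% of all antisense loci). Granulosa cell genes carried 32 loci on 16 hosts, of which 16 were positive, 2 without overlap higher and 0 lower (10.1% and 9.21% of all tested loci), with a median of -0.03. The same fit called 3 of these 32 higher, again beside 6.5% of all tested loci and 17.1% of all antisense loci. On IGF1R, the receptor of insulin-like growth factor, 4 loci were named. The one nearest the start had 109, 105 and 106 CPM in atretic and 70.6, 71.7 and 104 CPM in healthy libraries. Every atretic library was above every healthy one, but barely so for healthy replicate 3, and the 3 other loci overlapped. The locus on RUNX2, a transcription factor known from ovulation, had 345, 315 and 335 CPM in atretic and 317, 300 and 11.7 CPM in healthy libraries, and its host 264, 250 and 270 against 258, 249 and 8.75 CPM. Healthy replicate 3 was low in both and the rest were close together. The loci on VCAN, a matrix proteoglycan, and GATA6, a granulosa transcription factor, were instead highest in healthy replicate 3, at 195 and 45.1 CPM, as were their hosts. The locus on RUNX1, a transcription factor, overlapped between the groups, with a log2 fold change of 0.60 (SE 0.46), or 0.14 without atretic replicate 3 and 1.01 without healthy replicate 2.

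Genes with a well known antisense RNA in human carried 8 loci, of which 6 were positive, with a median of 0.29. Without overlap, 0 of the 8 were higher (10.1% of all tested loci and 16.2% of all antisense loci were). In the same way 0 were lower (9.21% and 2.68%). Without healthy replicate 3, edgeR called 1 of the 8 higher, on HIF1A (6.5% of all tested loci, and 17.1% of all antisense loci). The locus on HIF1A, the oxygen-regulated transcription factor, had 398, 316 and 401 CPM in atretic and 271, 282 and 882 CPM in healthy libraries. The locus on ZEB1, a zinc finger repressor, had a mean FPKM 6.32 times that of its host, with 326, 274 and 320 CPM in atretic and 245, 269 and 290 CPM in healthy libraries. The loci on WT1, PRKAG2, NNT, PSMA3 and THRA had log2 fold changes of 0.84, 0.31, 0.27, 0.40 and 0.33. When 1 library was left out, PRKAG2 ran from 0.08 to 0.49, NNT from 0.04 to 0.66, PSMA3 from 0.13 to 0.62 and THRA from 0.16 to 0.46. Whether any of these is the counterpart of the human RNA was not tested.

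In the other lists, TGF-beta and BMP genes carried 30 loci on 7 hosts, 15 of them on LTBP1, with 13 positive, 1 higher without overlap (10.1% of all tested loci) and a median of -0.14. Without healthy replicate 3, edgeR called 13 of the 30 higher and 0 lower, of which 12 lay on LTBP1 (6.5% and 5.35% of all tested loci). Matrix genes carried 17 on 10 hosts, with 12 positive, 4 higher without overlap and a median of 0.17, and 7 of the 17 were called higher in that fit. Hypoxia and glycolysis genes carried 12 on 8 hosts, with 2 positive, 1 higher without overlap, 1 called higher in that fit and a median of -0.35, beside a host median of -0.48. Proliferation genes carried 4, with 1 positive and a median of -0.52. BTG2 was the only immediate-early host, with a locus at -1.20 over a host at 1.63. The groups overlapped for the BTG2 antisense locus, and edgeR did not call it without healthy replicate 3. CTSS, on a locus that also holds ARNT and CTSK, was the only macrophage host, with a locus at 0.47 over a host at -0.88. The CTSS antisense locus was higher without overlap and was called higher without healthy replicate 3. Theca, endothelial and heat shock genes carried 0.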

How the data were processed

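The authors deposited 1 table with raw read counts and FPKM values, per the file headers, for 34119 loci in 3 atretic and 3 healthy libraries; groups were read from the titles' initials and the design text. The submitters' processing notes name StringTie 2.1.6, HISAT2 2.0.4, SAMtools, cutadapt 1.9 and FastQC 0.11.9. For the genome build, the annotation and any use of strand in counting, nothing is given in the sources used here. Sequences were not used here.

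The members and gene lists were chosen with earlier results of these data known. Counts were fitted with edgeR 4.0.16 (quasi-likelihood, TMM, group alone, two-sided, Benjamini-Hochberg at 0.05) over 21372 named loci with a mean count of at least 10, so that every antisense locus was tested. SE is the log2 fold change over the square root of F. Ratios to hosts were fitted with limma 3.58.1 over 5548 pairs. DESeq2 1.42.0, R 4.3.3, Python 3.11.15 and pandas 2.3.3 were used, and fits were tested on simulated data. These had 1 coefficient of variation, 0.436, for all loci. With 6 libraries, edgeR recovered 0 of 50 loci changed 1.5-fold and 1 of 50 changed 2-fold. It recovered 17 of 50 changed 4-fold and 47 of 50 changed 8-fold. A count of 0 called therefore does not show that small changes were absent. Relative levels used deposited FPKM. Where several hosts qualified, as for 2 loci, the one with most reads was taken.

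Named loci were those called, the 8 with most reads, the 8 largest rises and falls without overlap, the 6 highest relative to their host, up to 6 opposite pairs, and up to 8 each from the granulosa, ferroptosis and human antisense lists. A few loci and list genes are not reported here. A count of 0 allows up to 3 counts, for counting error only.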

Additional observations from a re-analysis of the deposited data

How the results depend on the processing

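The count of antisense loci called higher by edgeR, 0, was 1 with a filter on mean FPKM of at least 1, 1 with unnamed loci included, 123 with DESeq2 and between 0 and 562 when 1 library was left out. The count called lower, 0, was 13 with DESeq2 and between 0 and 28 when 1 library was left out. The highest values came without healthy replicate 3, and the count stayed at 0 without each of the other 5. Other scaling, no count filter, a minimum of 50 counts, loci wholly within the host and hosts of composite type left both counts at 0. The median log2 fold change, 0.08, ran from 0.0033 without healthy replicate 1 to 0.31 without healthy replicate 3, and was 0.10 with each host counted once, an alternative chosen after seeing the data. Pairs with a higher ratio by limma, 1, were 5 with a pseudocount of 5, 6 with at least 50 counts in both loci and between 0 and 61 when 1 library was left out, and pairs with a lower ratio between 0 and 2. The median log2 level relative to the host, -1.38, was -3.60 on counts not scaled by length and -1.41 to -1.35 when 1 library was left out.

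The labels name no animals, so whether the replicate numbers pair the samples is unknown. Correlations of deviations from the group mean were -0.0804, 0.0639 and -0.0135 for the same number. For unlike numbers they ran from -0.0951 to 0.106. Healthy replicate 3 set much of the healthy deviations, so this check could neither show nor exclude pairing. The fit with the replicate block called 0 antisense loci higher and 0 lower, with a median of 0.13, and 0 pairs by ratio; it turned the HS6ST2 locus to 0.04.

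Of 61 named loci, 32 were called in the same direction without healthy replicate 3, and 3 more in the reverse direction. That fit called 6.5% of all tested loci higher and 5.35% lower. DESeq2 called 23 of the 61, beside 1.83% of all tested loci higher and 1.31% lower. Many of the 61 were picked in these data for size, small p or lack of overlap, so high shares were partly built in. Of the 61, 11 changed sign under some alternative. When 1 library was left out, log2 fold changes ran from -0.36 to 0.49 for HS6ST2, -1.45 to 0.96 for ROBO1, -0.78 to 0.31 for FNDC3B, -0.00087 to 0.30 for AUTS2, -0.20 to 0.23 and -0.43 to 0.31 for the FAT3 loci, -0.24 to 3.22 for ENSOARG00020009349, -0.03 to 0.26 for IGF1R MSTRG.11938, -1.07 to 0.23 for VCAN, -0.64 to 0.43 for HIF1A and -1.02 to 0.38 for GATA6. HS6ST2, ROBO1 and HIF1A were called higher without healthy replicate 3. The cause was not tested. With 3 libraries a group, an exact permutation test of a single locus cannot go below p = 0.1. Reads of a locus and its host cannot be told apart without strand.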
